A study of Mus musculus with 18 samples.

Results

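The BMP and TGF-beta signalling genes of brain endothelium were followed here: the receptors Acvrl1, Tgfbr1, Tgfbr2 and Bmpr2, the co-receptor Eng, the signal carrier Smad1, the inhibitory SMADs Smad6 and Smad7, and the target genes Id1 and Id3. They were chosen by symbol and are 10 of the 21638 genes in the deposited count table. All 10 were tested, among 17094 genes that reached a count of 10 in 3 or more libraries. The study measured RNA in 18 libraries of cortical endothelial cells of adult mice, sorted for CD31 and against CD41 and CD45, with 3 libraries in each of 6 groups.

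All groups were taken on day 7 and are labelled with tamoxifen at 75 mg/kg. The 4 groups labelled WT came from sham mice and from mice with middle cerebral artery occlusion (MCAO, a stroke model), each with an ipsilateral and a contralateral group. The other 2 groups are ipsilateral endothelium after MCAO from mice labelled Hdac2 ECKO or Ezh2 ECKO, which carry Hdac2 lox/lox or Ezh2 lox/lox alleles with Cdh5CreERT2. Cdh5CreERT2 is a tamoxifen-dependent recombinase driven by an endothelial promoter, and those mice received 5 doses on days 0 to 4. The labels do not say whether the WT mice carried the recombinase, nor whether the libraries came from separate mice or both sides from 1 mouse. The p-values therefore measure the spread between these libraries, which may be technical. Fewer cells of a type and less RNA per cell cannot be told apart in such bulk samples.

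As background, BMP and TGF-beta ligands bind pairs of receptor kinases, which phosphorylate SMAD proteins that enter the nucleus with Smad4. In endothelium the pathway has 2 arms: Acvrl1 with Bmpr2 and the co-receptor endoglin (Eng) acts through Smad1 and its relatives and turns on the Id genes, while Tgfbr1 with Tgfbr2 acts through Smad2 and Smad3. Smad6 and Smad7 are themselves induced by the pathway and damp it, and loss of Acvrl1 or Eng causes hereditary vascular malformations, in the brain among other organs. Id1 and Id3 encode proteins that bind and block basic helix-loop-helix transcription factors.

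The libraries held between 25791401 and 57576255 counts. Neither deleted gene was lower, beyond the spread between libraries, in the libraries that name it. Hdac2 was at 57.6, 85.0 and 87.9 CPM (counts relative to the library total, scaled by the trimmed mean of M-values) in the Hdac2-labelled libraries and at 84.4, 68.2 and 96.1 CPM in MCAO ipsilateral endothelium, a log2 fold change of -0.11 ± 0.32 (SE; edgeR adjusted p = 0.93). Ezh2 was at 12.0, 19.7 and 8.41 CPM in the Ezh2-labelled libraries and at 4.45, 7.02 and 7.85 CPM in MCAO ipsilateral endothelium, higher without overlap (1.05 ± 0.86, adjusted p = 0.49). The table has 1 value per gene, so single exons were not analysed, and the deletion groups are called Hdac2-labelled and Ezh2-labelled below. The 10 endothelial markers summed to between 6478 and 9667 CPM over the 18 libraries, and none was at 0 in any library. The 10 microglia and leukocyte markers summed to between 2.32 and 26.0 CPM. Olfactory and vomeronasal receptor genes, which stand here for background signal, summed to between 152 and 2083 CPM. MCAO contralateral replicate 1 (1889 CPM) and Ezh2-labelled replicate 2 (2083 CPM) were highest, and these 2 correlated least with the remaining libraries (median r of 0.80 and 0.84).

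The target genes had by far the highest levels. Per kilobase of feature length, Id3 averaged 903 ± 552 CPM per kilobase and Id1 835 ± 418 CPM per kilobase (SD, n = 18 libraries). Id3 was above Id1 in 10 of 18 libraries, so their order was not fixed. Next came Bmpr2, with 42.5 ± 11.0 CPM per kilobase, and Id1 exceeded it in 18 of 18 libraries with ranges that did not overlap. Tgfbr2 (36.3 ± 14.2 CPM per kilobase), Eng (26.2 ± 7.36), Acvrl1 (22.7 ± 8.54), Smad7 (20.4 ± 8.90), Smad1 (11.9 ± 4.87), Tgfbr1 (8.85 ± 3.22) and Smad6 (6.34 ± 1.92) followed. Each of these neighbours in the order overlapped the next in range, and the upper exceeded the lower in between 10 and 17 of 18 libraries. With group means removed, the SD of the log2 level ran from 0.34 for Bmpr2, the steadiest member, to 0.72 for Id3.

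**Figure D1:**
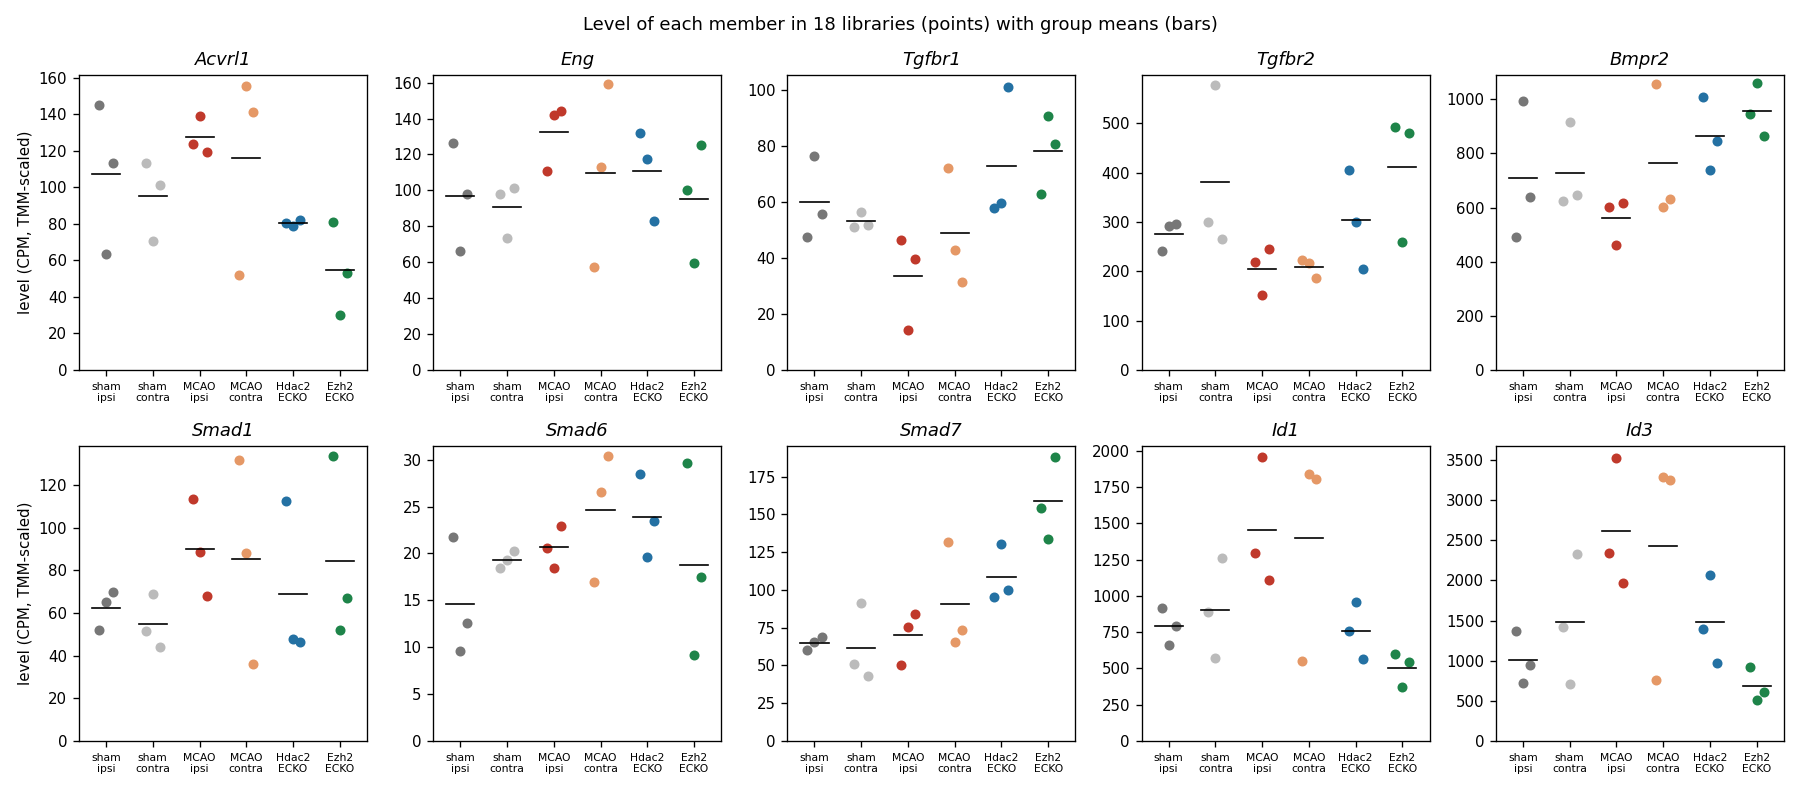
Levels of the 10 BMP and TGF-beta genes in each library, in CPM on a linear axis, by group, with each point a library and each bar the group mean. Id1 and Id3 sit highest in the MCAO groups (Id3 reaches 3529 CPM in MCAO ipsilateral replicate 2) and lowest in the Ezh2-labelled libraries, and MCAO contralateral replicate 1 stands apart from its group for Acvrl1, Id1 and Id3.

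Sequence just upstream of the receptor and co-receptor genes is shown for Tgfbr1 and Tgfbr2, which work as a pair, and for Eng, a component of the other arm, because their RefSeq windows lie outside the deposited gene models. Each run is the 250 bases before the RefSeq start in GRCm38.p6, read 5′ to 3′ on the gene's strand. Capitals mark GGCGCC, a GC-rich motif bound by BMP-activated SMADs that reads the same on both strands, or CAGAC and its complement GTCTG, which hold the core of the SMAD binding element. Those motifs do not overlap each other in these windows.
Tgfbr1: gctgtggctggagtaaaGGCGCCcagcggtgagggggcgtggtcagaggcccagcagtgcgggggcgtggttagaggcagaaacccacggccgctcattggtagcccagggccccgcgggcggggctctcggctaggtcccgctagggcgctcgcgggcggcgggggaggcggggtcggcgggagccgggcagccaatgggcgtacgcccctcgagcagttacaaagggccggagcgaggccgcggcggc
Tgfbr2: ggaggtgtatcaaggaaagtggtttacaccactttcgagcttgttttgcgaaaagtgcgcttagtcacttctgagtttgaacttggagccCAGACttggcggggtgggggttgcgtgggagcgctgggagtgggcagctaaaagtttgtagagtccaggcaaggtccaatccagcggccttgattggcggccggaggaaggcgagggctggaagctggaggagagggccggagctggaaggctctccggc
Eng: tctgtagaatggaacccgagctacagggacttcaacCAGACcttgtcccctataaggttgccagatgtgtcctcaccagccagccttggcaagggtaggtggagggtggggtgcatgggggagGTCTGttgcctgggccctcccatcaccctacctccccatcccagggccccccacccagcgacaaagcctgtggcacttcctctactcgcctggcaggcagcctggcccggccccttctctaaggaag
The Tgfbr1 run lies at chr4:47352972-47353221 on the plus strand, the Tgfbr2 run at chr9:116175364-116175613 on the minus strand and the Eng run at chr2:32646345-32646594 on the plus strand. Tgfbr1 has 29 CpG dinucleotides in this window and 1 GGCGCC, Tgfbr2 has 12 and 1 CAGAC, and Eng has 4 and 2 matches to CAGAC or its complement. Among all 32851 RefSeq promoter windows of this length, the median number of CpG was 6 (quartiles 2 and 16), 9.59% held GGCGCC and 42.2% held CAGAC or GTCTG. A further Tgfbr1 window (chr4:47385966-47386215, 3 CpG, 1 CAGAC or GTCTG) and that of Bmpr2 (22 CpG, 1 GGCGCC) lie within the deposited gene models and are not printed. A match is a description of letters and not a binding site. Of the 10 genes 7 had a RefSeq window; Acvrl1, Smad7 and Id1 had none.

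The receptors of the BMP arm came first. Acvrl1 (chromosome 15, 101128522 to 101145336 in GRCm38, plus strand) encodes the endothelial receptor kinase ALK1. It was at 145, 63.2 and 113 CPM in sham ipsilateral endothelium and at 124, 139 and 119 CPM in MCAO ipsilateral endothelium. In the Hdac2-labelled libraries it was at 80.7, 78.5 and 82.1 CPM, and in the Ezh2-labelled ones at 81.2, 30.0 and 53.1 CPM. Sham and MCAO overlapped, and all 6 libraries of the deletion labels lay below all 3 MCAO ipsilateral libraries. On the contralateral side Acvrl1 was at 113, 70.6 and 101 CPM in sham and at 52.0, 155 and 141 CPM in MCAO.

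Eng encodes endoglin, the co-receptor that presents BMP ligands to Acvrl1 (chromosome 2, 32646595 to 32682669, plus strand). Its level was 126, 66.5 and 98.1 CPM in sham ipsilateral and 111, 142 and 144 CPM in MCAO ipsilateral endothelium. It was 132, 117 and 82.9 CPM in the Hdac2-labelled libraries and 100.4, 59.3 and 125 CPM in the Ezh2-labelled ones. Every pair of these groups overlapped for Eng. The contralateral libraries had 98.2, 73.5 and 101 CPM in sham and 57.5, 113 and 159 CPM in MCAO. The 3′ end of Eng overlaps Fpgs on the opposite strand. Whether counting used strand is not given in the sources used here, so reads in the overlap cannot be told apart and the Eng values carry that limit.

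Bmpr2 encodes the partner receptor of Acvrl1, mutated in heritable pulmonary hypertension (chromosome 1, 59763400 to 59879014, plus strand). It was at 490.4, 993 and 640.0 CPM in sham ipsilateral and at 603, 464 and 616 CPM in MCAO ipsilateral endothelium. It was at 1010.2, 738 and 845 CPM in the Hdac2-labelled libraries and at 945, 1061 and 863 CPM in the Ezh2-labelled ones. All 6 libraries of the deletion labels lay above the MCAO ipsilateral ones, and the highest sham library was within their range. Contralateral Bmpr2 was at 624, 916 and 647 CPM in sham and at 1058, 603 and 632 CPM in MCAO.

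Tgfbr1 encodes the TGF-beta receptor kinase ALK5 (chromosome 4, 47353222 to 47414931, plus strand). It was at 47.6, 76.4 and 55.7 CPM in sham ipsilateral and at 46.5, 14.4 and 39.9 CPM in MCAO ipsilateral endothelium. It was at 58.0, 59.9 and 101 CPM in the Hdac2-labelled libraries and at 63.0, 90.8 and 80.9 CPM in the Ezh2-labelled ones. MCAO ipsilateral lay below each of the other 3 ipsilateral groups without overlap, by a narrow margin against sham (46.5 against 47.6 CPM). The contralateral values were 51.3, 56.5 and 51.8 CPM in sham and 72.4, 43.0 and 31.4 CPM in MCAO.

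Tgfbr2 encodes the receptor that binds TGF-beta and recruits Tgfbr1 (chromosome 9, 116084293 to 116175360, minus strand). It was at 241, 291 and 297 CPM in sham ipsilateral and at 218, 152 and 246 CPM in MCAO ipsilateral endothelium. It was at 405, 299.9 and 206 CPM in the Hdac2-labelled libraries and at 493, 259.9 and 479 CPM in the Ezh2-labelled ones. The Ezh2 label lay above MCAO ipsilateral without overlap, and the Hdac2 label overlapped it. On the contralateral side sham was at 299.9, 577 and 266 CPM and MCAO at 223, 217 and 186 CPM, with every MCAO library below every sham library.

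Smad1 carries the BMP signal to the nucleus (chromosome 8, 79338395 to 79399518, minus strand). It was at 52.2, 65.3 and 69.7 CPM in sham ipsilateral and at 113, 88.6 and 68.2 CPM in MCAO ipsilateral endothelium. It was at 112, 48.0 and 46.2 CPM in the Hdac2-labelled libraries and at 134, 52.0 and 67.0 CPM in the Ezh2-labelled libraries. In both deletion labels 1 library stood well above the other two, and all groups overlapped. Contralateral Smad1 was at 51.5, 68.9 and 44.2 CPM in sham and at 132, 88.0 and 35.9 CPM in MCAO.

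Smad6, which blocks mainly the BMP arm (chromosome 9, 63953076 to 64022059, minus strand), was at 21.8, 9.58 and 12.5 CPM in sham ipsilateral and at 20.6, 18.4 and 23.0 CPM in MCAO ipsilateral endothelium. It was at 28.5, 19.6 and 23.5 CPM in the Hdac2-labelled libraries and at 29.7, 9.16 and 17.4 CPM in the Ezh2-labelled libraries, and these groups overlapped. Contralateral Smad6 was at 18.4, 19.3 and 20.3 CPM in sham and at 17.0, 26.6 and 30.4 CPM in MCAO. Smad7, which blocks both arms at the receptor, was at 60.2, 65.3 and 68.8 CPM in sham ipsilateral and at 50.1, 75.5 and 83.7 CPM in MCAO ipsilateral endothelium. It was at 95.2, 130.4 and 99.8 CPM in the Hdac2-labelled libraries and at 154, 134 and 188 CPM in the Ezh2-labelled libraries. For Smad7 the 3 groups after MCAO on the ipsilateral side did not overlap at all, with the WT libraries lowest and the Ezh2 label highest. Contralateral Smad7 was at 50.6, 91.2 and 43.0 CPM in sham and at 132, 65.5 and 73.7 CPM in MCAO.

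The targets Id1 (chromosome 2, 152736251 to 152737410, plus strand) and Id3 (chromosome 4, 136143497 to 136145755, plus strand) had nearly the same order of groups. Id1 was at 916, 663 and 792 CPM in sham ipsilateral, at 1297, 1957 and 1106 CPM in MCAO ipsilateral, at 759, 955 and 565 CPM in the Hdac2-labelled libraries and at 597, 372 and 541 CPM in the Ezh2-labelled libraries. Every MCAO ipsilateral library was above every other ipsilateral library for Id1. Id3 was at 1363, 716 and 945 CPM in sham ipsilateral, at 2347, 3529 and 1973 CPM in MCAO ipsilateral, at 1394, 2072 and 976 CPM in the Hdac2-labelled libraries and at 919, 506 and 609.7 CPM in the Ezh2-labelled libraries. For Id3 the Hdac2 label reached into the MCAO range with 1 library, and the Ezh2 label lay below both. On the contralateral side Id1 was at 889, 568 and 1259 CPM in sham and at 554, 1840.5 and 1804 CPM in MCAO. Id3 was at 1419.5, 709 and 2326 CPM in sham and at 753, 3289 and 3256 CPM in MCAO. The MCAO contralateral libraries thus held both the lowest or nearly the lowest and the highest contralateral values, with replicate 1, of high background, at the low end.

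The first comparison asked what occlusion did on the injured side. In MCAO ipsilateral against sham ipsilateral endothelium, the largest differences were in the Id genes. Id3 differed by a log2 fold change of 1.38 ± 0.49 (SE; 95% interval 0.35 to 2.40; unadjusted p = 0.0110; adjusted p = 0.60 by edgeR's quasi-likelihood test with Benjamini-Hochberg adjustment over 17094 genes). Id1 differed by 0.88 ± 0.40 (adjusted p = 0.69) and Tgfbr1 by -0.83 ± 0.41 (adjusted p = 0.71). None of the 10 members passed the adjusted threshold in edgeR, where 0% of all genes did. At an unadjusted p under 0.05, 2 members were higher and 0 lower, against 4.26% and 2.81% of all genes. Without overlap, 2 members were higher and 1 lower, against 13.3% and 14.4% of all genes, so a lack of overlap was common. The remaining members lay between -0.43 ± 0.35 for Tgfbr2 and 0.53 ± 0.45 for Smad1. The median log2 fold change was 0.35 over the members and -0.09 over all tested genes. DESeq2 called 0 members, and limma voom with sample weights called Id1 (0.78, adjusted p = 0.0400) and Id3 (1.33, adjusted p = 0.0131). Of all 17094 genes DESeq2 called 69 and voom 1273, so calls by voom were common here. Over all alternative settings the adjusted p ran from 0.0400 to 0.98 for Id1 and from 0.0131 to 0.81 for Id3. With the trend on feature length removed the values were 0.21 for Id1 and 0.80 for Id3, and without sham ipsilateral replicate 2 Acvrl1 went from 0.25 to -0.019. Sums of markers of other cells lay apart in the same comparison. The 10 microglia and leukocyte markers summed to 4.12 to 7.14 CPM in sham and 8.82 to 26.0 CPM in MCAO ipsilateral libraries, and the 10 pericyte and smooth muscle markers to 106 to 165 CPM and 40.2 to 104 CPM. The microglia and leukocyte markers did not all rise. P2ry12 was at 0.048 to 0.48 CPM in sham and 2.44 to 7.55 CPM in MCAO ipsilateral libraries, but Ptprc was lower, at 0.94 to 2.76 CPM and 0.31 to 0.81 CPM. Neither sum overlapped, no marker of either list was at 0 in all 3 libraries of either group, and their part in the members' values was not tested.

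On the contralateral side the same comparison gave Tgfbr2 as the largest difference, at -0.87 ± 0.35 (95% interval -1.60 to -0.14; unadjusted p = 0.0211; edgeR adjusted p = 0.92). It was the only member without overlap and the only one at an unadjusted p under 0.05, against 6% of all genes lower without overlap and 1.76% lower at that p. Id1 was at 0.63 ± 0.40 and Id3 at 0.71 ± 0.49, in the direction seen on the ipsilateral side but with overlapping groups. Without the high-background MCAO contralateral replicate 1 and Ezh2-labelled replicate 2, those values were 1.00 and 1.14. Without sham contralateral replicate 2, which had the highest Tgfbr2 level, the Tgfbr2 value was -0.44. The pericyte and smooth muscle markers summed to 103 to 201 CPM in sham and 17.6 to 68.1 CPM in MCAO contralateral libraries, without overlap, and the microglia and leukocyte markers to 5.82 to 9.13 CPM and 7.20 to 19.9 CPM, with overlap. Their part in the result was not tested. No member was called by edgeR (0% of all genes), DESeq2 or voom. Whether the effect of occlusion differed between sides was tested directly: the difference ran from -0.71 ± 0.58 for Tgfbr1 to 0.66 ± 0.69 for Id3, with a lowest adjusted p of 0.94 in edgeR and 0% of all genes called. The median difference of all tested genes was -1.17 among the 20% lowest in GC, which hold Tgfbr1. It was 0.44 among the shortest 20% and 0.25 among the 20% highest in GC, both of which hold Id3. Leaving out 1 library at a time gave -1.02 to -0.33 for Tgfbr1 (-0.33 without MCAO contralateral replicate 1, -0.35 without MCAO ipsilateral replicate 2) and 0.18 to 1.00 for Id3 (0.18 without sham contralateral replicate 3, 0.24 without MCAO contralateral replicate 1). By each of edgeR, DESeq2 and voom 0 members passed, and 0 had an unadjusted p under 0.05 in edgeR, against 3.38% of all genes.

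Between sides of the same treatment no member passed the test. MCAO ipsilateral against MCAO contralateral gave log2 fold changes from -0.54 ± 0.41 for Tgfbr1 to 0.27 ± 0.37 for Eng, and sham ipsilateral against sham contralateral gave -0.56 ± 0.49 for Id3 to 0.19 ± 0.45 for Smad1. In neither comparison was a member called by edgeR (0% of all genes in both), DESeq2 or voom, at an unadjusted p under 0.05, or without overlap. Of all genes 3.08% between MCAO sides and 1.85% between sham sides had such a p, and 5.37% and 15.4% did not overlap. Without MCAO contralateral replicate 1 the Eng value turned to -0.064. Leaving out 1 library at a time gave -0.85 to -0.17 for Tgfbr1 between MCAO sides and -0.89 to -0.10 for Id3 between sham sides.

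**Figure D2:**
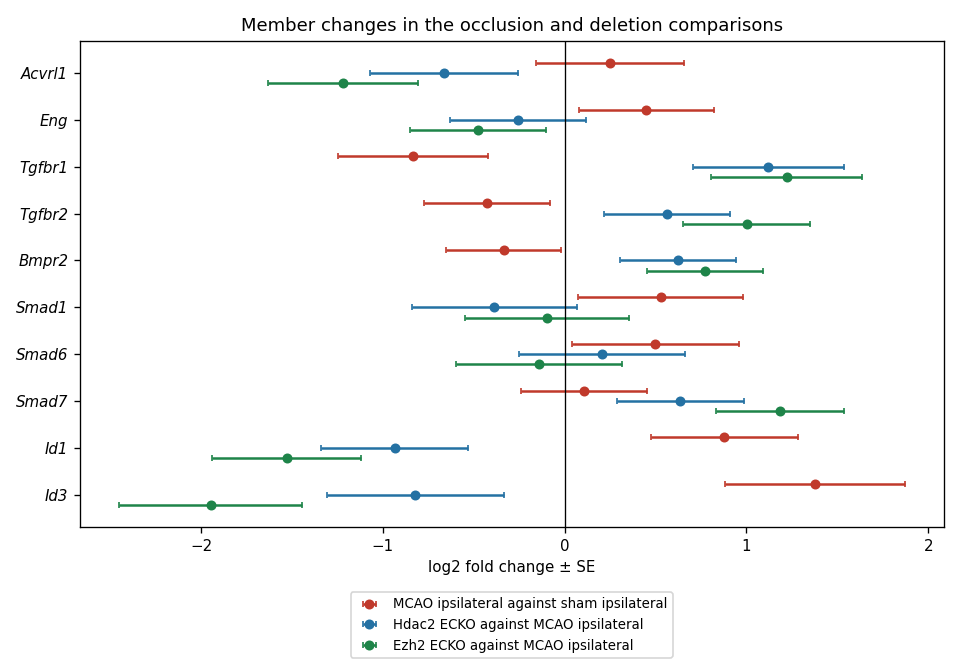
Log2 fold changes of the 10 genes from the edgeR fit, with bars of the SE and a line at 0. The comparisons are ipsilateral occlusion against sham and each deletion label against MCAO ipsilateral. In the Ezh2-labelled libraries against MCAO ipsilateral, Id1 (-1.53) and Id3 (-1.95) sit to the left and Tgfbr1 (1.22), Tgfbr2 (1.00) and Smad7 (1.19) to the right. Their 95% intervals, which are not drawn, leave out 0, but no adjusted p was under 0.05.

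The comparisons of the deletion labels with MCAO ipsilateral endothelium share their control libraries, so each is given by its own values. In the Hdac2-labelled libraries, Tgfbr1 had the largest difference, 1.12 ± 0.41 (95% interval 0.26 to 1.98; unadjusted p = 0.0130; edgeR adjusted p = 0.43). Id1 differed by -0.94 ± 0.40 (95% interval -1.78 to -0.09; adjusted p = 0.47), Id3 by -0.82 ± 0.49 (adjusted p = 0.60) and Acvrl1 by -0.66 ± 0.41 (adjusted p = 0.62). Smad7 was at 0.64 ± 0.35, Bmpr2 at 0.62 ± 0.32 and Tgfbr2 at 0.56 ± 0.35. The members were called 0 times by edgeR, against 0.0117% of all genes, and 0 times by DESeq2 and voom. At an unadjusted p under 0.05, 1 member was higher and 1 lower, against 4.61% and 5.24% of all genes. Without overlap 3 members (Tgfbr1, Bmpr2 and Smad7) were higher and 2 (Acvrl1 and Id1) lower, against 9.54% and 10.3% of all genes. The members had a median of -0.03, and all tested genes 0.11. With the length trend removed Bmpr2 was at 0.09. With the GC trend removed Tgfbr1 was at 0.74, Acvrl1 at -0.30 and Smad7 at 1.01. The medians of genes of like length and GC percent are given below for this comparison too.

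In the Ezh2-labelled libraries Id3 differed from MCAO ipsilateral by -1.95 ± 0.50 (95% interval -2.99 to -0.90; unadjusted p = 8.5e-04; edgeR adjusted p = 0.052) and Id1 by -1.53 ± 0.41 (95% interval -2.38 to -0.68; unadjusted p = 0.00122; adjusted p = 0.058). Smad7 differed by 1.19 ± 0.35 (0.45 to 1.92; adjusted p = 0.080). Among the receptors, Tgfbr1 was at 1.22 ± 0.41 (adjusted p = 0.12), Tgfbr2 at 1.00 ± 0.35 (adjusted p = 0.13) and Bmpr2 at 0.77 ± 0.32 (adjusted p = 0.19). Acvrl1 was at -1.22 ± 0.41 (adjusted p = 0.12). These directions are set beside those of genes of like length and GC percent below. Eng was at -0.48 ± 0.37 (95% interval -1.25 to 0.30), Smad1 at -0.10 ± 0.45 and Smad6 at -0.14 ± 0.46, and their intervals take in both directions. None of the 10 passed the adjusted threshold in edgeR, where 1.46% of all genes did. At an unadjusted p under 0.05, 4 members were higher and 3 lower, against 8.51% and 10.7% of all genes, and the same 7 members had groups without overlap, against 13.6% higher and 15.3% lower. The median was -0.12 over the members and 0.17 over all tested genes.

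Those adjusted p-values lie near the threshold and moved across it with the method. DESeq2 called 6 members (Acvrl1, Tgfbr1, Tgfbr2, Smad7, Id1 and Id3) and voom 3 (Smad7, Id1 and Id3). Of all 17094 tested genes DESeq2 called 1642 and voom 377, against 250 in the edgeR fit. With size factors of the DESeq2 kind in edgeR (RLE scaling) 2 were called, Id1 (adjusted p = 0.0466) and Id3 (0.0384), and 368 of all genes. With both high-background libraries left out 4 were called: Tgfbr2 at 1.27, Smad7 at 1.32, Id1 at -1.33 and Id3 at -1.75. That fit called 1000 of 15641 genes. With the receptor background as a covariate, or with the trend on length or on GC percent removed, 0 were called, against 13, 279 and 87 of all genes. Over all these settings the adjusted p ran from 0.00766 to 0.20 for Id3, from 0.0131 to 0.20 for Id1 and from 0.0169 to 0.21 for Smad7.

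Because RLE scaling moved the median of all genes in this comparison by 0.19, members were also set against that median. Relative to it, the edgeR values were -2.12 for Id3, -1.70 for Id1, -1.39 for Acvrl1, 1.05 for Tgfbr1, 1.01 for Smad7, 0.83 for Tgfbr2 and 0.60 for Bmpr2. With the background as a covariate they were -1.05 for Id3, -0.81 for Id1, -0.62 for Acvrl1, 0.75 for Tgfbr1, 0.97 for Smad7, 1.09 for Tgfbr2 and 0.49 for Bmpr2. All of these but Tgfbr2 were closer to the median with the covariate, with Smad7 nearly the same and Id3, Id1 and Acvrl1 moving the most. With the length trend removed Bmpr2 changed sign, to -0.36, and with the GC trend removed it was at 0.02, while Smad7 was at 1.07 and 1.75. Eng and Smad6 changed sign relative to the median with the covariate (0.084 and 0.26), as did Smad1 with both high-background libraries left out (0.17), so none of these 3 has a direction that held over the settings.

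**Figure D3:**
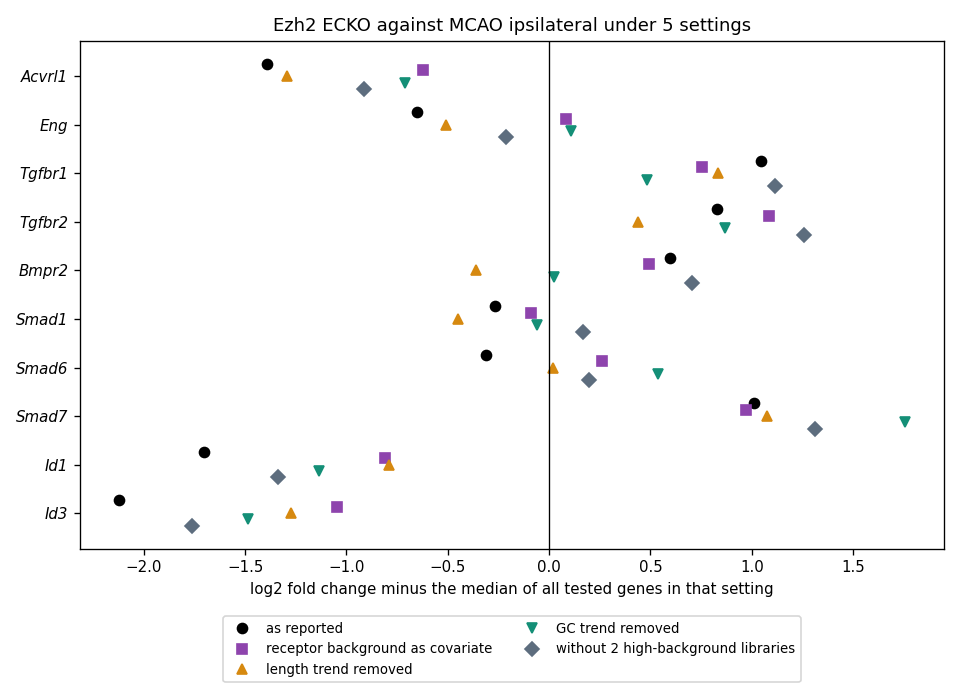
Log2 fold changes of the 10 genes in the Ezh2-labelled libraries against MCAO ipsilateral, minus the median of all tested genes, under 5 settings of the edgeR fit. Id3 runs from -2.12 to -1.05 and Smad7 from 0.97 to 1.75, and Bmpr2 crosses 0 when the length trend is removed (-0.36).

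Feature length and GC percent went with the fold changes of all genes. In the Ezh2-labelled libraries against MCAO ipsilateral, the median of all tested genes was -0.43 among the shortest 20% of genes and 0.60 among the longest 20%, and 1.28 among the 20% lowest in GC and -0.66 among the 20% highest. Id1 (1160 bases) and Id3 (1791 bases) belong to the shortest class, and Bmpr2 (17983 bases) and Tgfbr2 (8187 bases) to the longest. Tgfbr1 and Bmpr2, each at 41.0% GC, belong to the lowest class of GC, and Acvrl1 (56.6%), Eng (57.4%), Smad6 (60.8%), Smad7 (56.9%) and Id3 (55.6%) to the highest. Id3 thus had the sign of the median both of its length class and of its GC class, and Smad7 the sign opposite to that of its GC class. Tgfbr1 and Bmpr2 had the sign of the median of their GC class and lay below it. Acvrl1 also had the sign of its GC class, with a larger size, and Tgfbr2 lay above the median of its length class. In MCAO ipsilateral against sham ipsilateral the gradients ran the other way, with medians from 0.47 in the shortest to -0.45 in the longest class and from -0.68 in the lowest to 0.30 in the highest class of GC. For the Hdac2 label they ran as for the Ezh2 label. The medians there went from -0.08 in the shortest to 0.32 in the longest class and from 0.69 in the lowest to -0.37 in the highest class of GC. With that label Tgfbr1, Bmpr2, Acvrl1, Eng and Id3 had the sign of their GC class, and Smad6 and Smad7 the opposite sign. Bmpr2 lay below the median of its GC class.

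**Figure D4:**
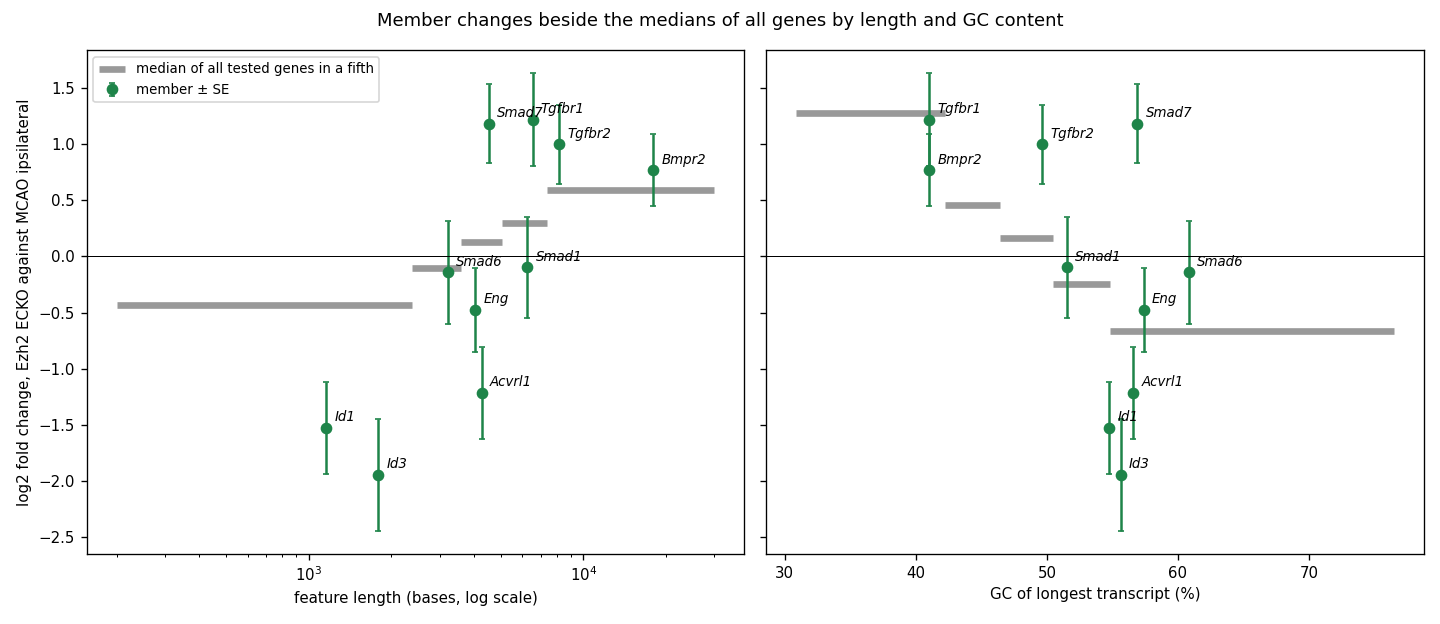
Median log2 fold change of all tested genes by class of feature length (left, bases on a log axis) and of GC percent (right), each class holding 20% of the genes, with the members as labelled points, in the Ezh2-labelled libraries against MCAO ipsilateral. The medians go from -0.43 to 0.60 with length and from 1.28 to -0.66 with GC percent, and Smad7 (1.19) lies above the median of its GC class.

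Levels of several members also went with the background of receptor genes across the 18 libraries. The Pearson correlation of log2 levels was -0.84 for Acvrl1 (permutation p = 3e-05), -0.81 for Eng, -0.80 for Id1 (p = 6e-05), -0.80 for Id3 (p = 1e-05, the smallest that 100000 resamples can give), -0.69 for Smad6, 0.70 for Tgfbr1 (p = 0.00145) and 0.66 for Bmpr2 (p = 0.00199). The Spearman values were -0.75 for Acvrl1, -0.73 for Eng, -0.83 for Id1, -0.84 for Id3, -0.68 for Smad6, 0.79 for Tgfbr1 and 0.61 for Bmpr2. Adjusted over the 10 relations, the p-values of these 7 genes were at most 0.00371 for r and 0.0133 for rho. The permutations shuffled all 18 libraries freely, so these p-values take no account of the groups. Such relations were common: of 7793 genes averaging 10 CPM or more and above 0 in every library, 6.6% had an r of 0.6 or more and 26.3% an r of -0.6 or less, against 2 and 5 of the 10 members. Smad7 had r = 0.50 (p = 0.0346; adjusted over the 10 relations 0.0432) and rho = 0.43 (p = 0.0741; adjusted 0.0926), while Tgfbr2 (r = 0.08) and Smad1 (r = 0.04) showed no relation at this number of libraries. Without the 2 libraries farthest from the median background, r was -0.69 for Acvrl1, -0.79 for Id1, -0.82 for Id3, 0.76 for Tgfbr1 and 0.34 for Smad7. With group means removed it was -0.89 for Acvrl1, -0.87 for Id1, -0.84 for Id3, 0.72 for Tgfbr1 and 0.41 for Smad7, so libraries of 1 group differed among themselves along the same line. The background was 154 to 296 CPM in MCAO ipsilateral libraries, 198 to 639 CPM in the Hdac2-labelled libraries and 268 to 2083 CPM in the Ezh2-labelled libraries. Globin genes took 3.78% to 5.78% of counts in MCAO ipsilateral, 5.41% to 19.9% in the Hdac2-labelled libraries and 0.00932% to 0.0653% in the Ezh2-labelled libraries, and the part of red cell RNA in the differences was not tested. The microglia and leukocyte sums were 8.82 to 26.0 CPM, 2.32 to 15.2 CPM and 10.2 to 21.7 CPM in these groups, and the pericyte and smooth muscle sums 40.2 to 104 CPM, 22.5 to 70.3 CPM and 26.9 to 169 CPM, ranges that overlap.

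The deletion labels were compared with each other directly. Id3 was at higher levels in the Hdac2-labelled than in the Ezh2-labelled libraries, without overlap, by 1.13 ± 0.49 (95% interval 0.11 to 2.15; unadjusted p = 0.0320; edgeR adjusted p = 0.39). Smad7 was lower without overlap, by -0.55 ± 0.35 (95% interval -1.27 to 0.17; adjusted p = 0.61). Id1 was at 0.59 ± 0.40 (95% interval -0.24 to 1.43) and at -0.022 with the length trend removed. Tgfbr1 was at -0.10 ± 0.41 (95% interval -0.95 to 0.75) and Bmpr2 at -0.15 ± 0.32 (-0.80 to 0.51), intervals that leave room for a difference in either direction. Of the members 0 were called by edgeR, against 0.123% of all genes, and 0 by DESeq2 and voom. At an unadjusted p under 0.05 the count was 1 higher, against 6.96% of all genes, and without overlap 1 higher and 1 lower, against 6.87% and 5.26%.

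Other genes of the pathway, 55 by a list drawn up by role, were read beside the members, and 52 of them were tested. The Bmp7, Bmp10 and Gdf2 ligand genes were below the count filter. In MCAO ipsilateral against sham ipsilateral 0 were called by edgeR, and 4 (7.69% of the 52) were higher and 1 (1.92%) lower at an unadjusted p under 0.05, against 4.26% and 2.81% of all genes. The list's median was -0.11 and that of all genes -0.09. In the Hdac2-labelled libraries against MCAO ipsilateral 0 were called, with 6 (11.5%) higher and 3 (5.77%) lower at an unadjusted p under 0.05, against 4.61% and 5.24% of all genes, and a median of 0.20 against 0.11. In the Ezh2-labelled ones 1 of the 52 was called, where 1.46% of all genes were. At an unadjusted p under 0.05, 5 (9.62%) were higher and 4 (7.69%) lower there, against 8.51% and 10.7% of all genes. The list's median was 0.25 in that comparison, against 0.17. Between the deletion labels 0 were called, with 4 (7.69%) higher and 1 (1.92%) lower, against 6.96% and 4.25% of all genes, and a median of -0.08 against -0.15. Nothing particular to the list is read from these shares.

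The 1 called gene was Fkbp1a, whose product FKBP12 binds the receptor kinases and keeps them inactive without ligand. Fkbp1a fell in the Ezh2-labelled libraries, where its lowest, median and highest levels were 92.5, 181 and 207 CPM, against 306, 367 and 633 CPM in MCAO ipsilateral endothelium. The groups did not overlap, and the log2 fold change was -1.44 ± 0.36 (edgeR adjusted p = 0.0493). In sham ipsilateral it was at 166, 181 and 223 CPM, and MCAO differed from that by 1.20 ± 0.36 (adjusted p = 0.51). The call did not hold in 6 other settings: without the count filter, by voom, with the replicate block, with only the groups compared, with the background covariate (-0.95, adjusted p = 0.145) and with the GC trend removed (-0.94, adjusted p = 0.135). It was also lost in 5 of 6 fits that left out 1 library, where the adjusted p ran from 0.0369 to 0.31 (-1.07 without MCAO ipsilateral replicate 2), and over the other settings it ran from 0.00894 to 0.145.

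By role, 8 of 9 other receptors and co-receptors had a positive fold change in the Ezh2-labelled libraries and 1 a negative one, with 3 of 8 ligands, 3 of 5 SMADs, 13 of 17 inhibitors and modulators and 5 of 13 targets positive. Of all tested genes 55.4% were positive there. The median of those receptors and co-receptors was 0.39. They are 3928 to 8716 bases long, and all tested genes in the length classes they fall in had medians of 0.13, 0.30 and 0.60. In the Hdac2-labelled libraries 5 of 9 receptors, 5 of 8 ligands, 4 of 5 SMADs, 9 of 17 inhibitors and 6 of 13 targets were positive, against 54.8% of all tested genes. The most abundant gene of each role shows the sizes. Among the targets Tsc22d1, a TGF-beta-stimulated gene, averaged 812 ± 165 CPM in sham ipsilateral, 1911 ± 952 CPM in MCAO ipsilateral, 760.5 ± 36.3 CPM in the Hdac2-labelled libraries and 731 ± 100.1 CPM in the Ezh2-labelled libraries (SD, n = 3), with a log2 fold change of -1.39 ± 0.38 for the Ezh2 label (edgeR adjusted p = 0.064; 0.0235 to 0.31 over the other settings). Among these groups the mean of Tsc22d1 was highest in MCAO ipsilateral endothelium, as were those of Id1 and Id3. The ligand Tgfb2 averaged 117 ± 13.0, 47.2 ± 41.0, 138 ± 3.87 and 107 ± 31.6 CPM in the same groups. The Tgfb2 libraries ran from 18.7 to 94.2 CPM in MCAO ipsilateral and from 15.4 to 134 CPM in MCAO contralateral endothelium. The log2 fold change of MCAO ipsilateral against sham ipsilateral was -1.31 ± 0.61 (edgeR adjusted p = 0.69), and -2.26 without MCAO ipsilateral replicate 3. Voom called it (-1.64, adjusted p = 0.0288), among 1273 of 17094 genes, and over the settings the adjusted p ran from 0.0288 to 0.89. The co-receptor Tgfbr3 (betaglycan) differed by 0.39 ± 0.36 in the Ezh2-labelled libraries (adjusted p = 0.53). Smad4, the shared partner of the signalling SMADs, averaged 57.0 ± 9.18 CPM in MCAO ipsilateral and 119 ± 42.6 CPM in the Ezh2-labelled libraries, a difference of 1.06 ± 0.35 (adjusted p = 0.11; 0.0198 to 0.31 over the other settings).

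**Figure D5:**
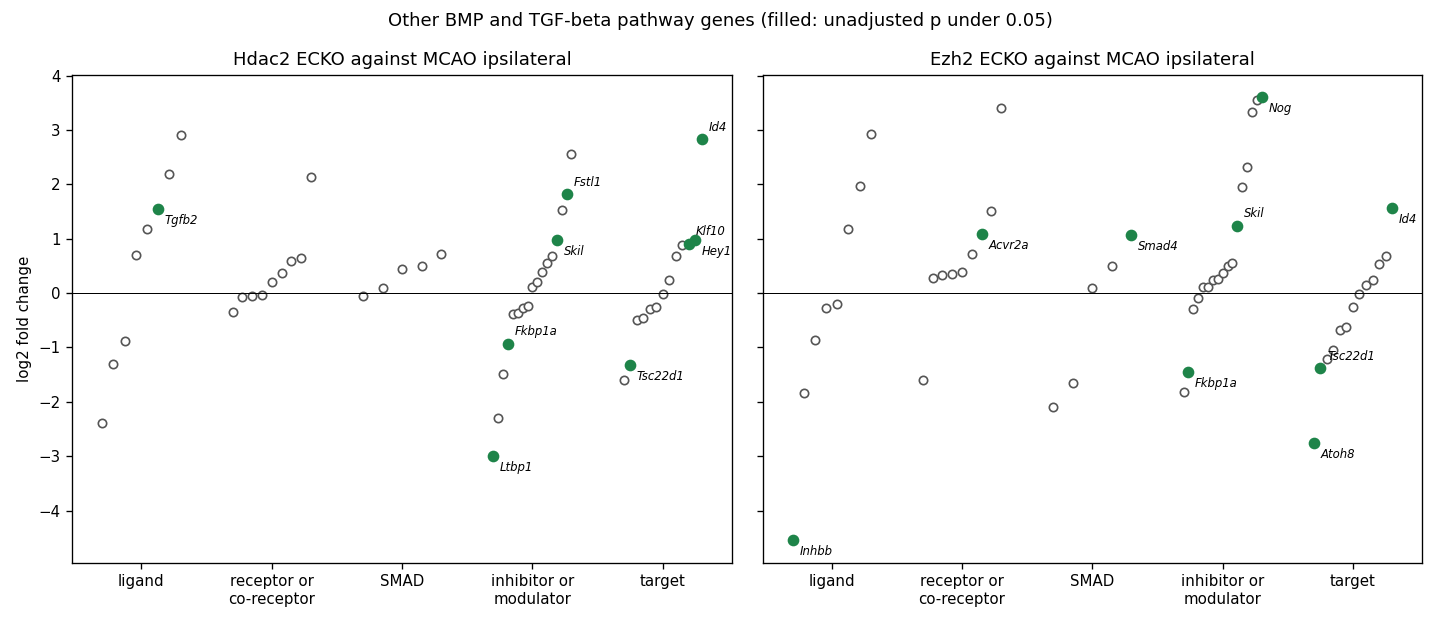
Log2 fold changes of the 52 other pathway genes tested, by role, for each deletion label against MCAO ipsilateral, with filled points at an unadjusted p under 0.05 and a line at 0. In the Ezh2-labelled libraries 8 of 9 receptors and co-receptors lie above 0, against 55.4% of all tested genes, with 1 of the 9 at an unadjusted p under 0.05. All tested genes in the length classes of these receptors had medians of 0.13, 0.30 and 0.60. Fkbp1a (-1.44) is the 1 gene with an adjusted p under 0.05.

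The genes whose levels were most like those of Id1 over the 18 libraries, among 7814 genes averaging 10 CPM or more, were Crip2 (r = 0.97), Ramp2 (r = 0.97) and Atp6v0c (r = 0.97), by Pearson correlation of log2 CPM. For Acvrl1 they were Taldo1 (r = 0.94), Capns1 (r = 0.94) and Tmem234 (r = 0.94). All these values come from the same libraries and share their depth and background.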

How the data were processed

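RNA of sorted mouse cortical endothelium was measured with SMART-Seq V4 PLUS libraries, sequenced as read pairs, per the labels' protocols. The submitters' processing notes name FastQC, cutadapt, STAR, featureCounts, DESeq2 and the mm10 build (GRCm38), without versions or settings. The authors deposited 1 table of counts per gene; its name calls it normalized, but its values are whole, differ in total between libraries and were used as unscaled counts. Of counts from 1 to 20, 77.3% to 89.4% were even per library. The deposited table also gives feature length, coordinates and strand.

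The 6 groups were fitted together with edgeR 4.0.16 in R 4.3.3 (TMM scaling, quasi-likelihood F-test, Benjamini-Hochberg adjustment, called at an adjusted p under 0.05), giving 12 residual degrees of freedom for 8 comparisons. Genes were tested that reached a count of 10 in 3 or more libraries. CPM use TMM-scaled totals, and 3 counts equal 0.0521 to 0.116 CPM. DESeq2 1.42.0 and limma 3.58.1 (voom) were alternatives. The fit was tested on simulated data, with 200 genes changed in the Ezh2-labelled libraries against MCAO ipsilateral. At a log2 fold change of 1 it recovered 0% of them, with 0 false calls. At 2 it recovered 47%, with 4 false calls. Changes near 1 could thus go uncalled. Sequences are RefSeq's (GRCm38.p6), and GC percent is that of each gene's longest GENCODE transcript, known for 99.2% of tested genes.

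The text names all 10 members; of the pathway list, every called gene and otherwise the gene with the highest mean CPM in each role; Hdac2 and Ezh2; and the 3 genes most like Id1 and Acvrl1. Members and lists were chosen with earlier results of these data known. Removing length or GC trends and leaving out both high-background libraries were chosen after the data were seen.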

Additional observations from a re-analysis of the deposited data

How the results depend on the processing

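Alternatives were computed for every member in every comparison. The counts and sign changes given here cover 42 of the members' fold changes and leave out the rest. The 42 are all 10 in ipsilateral occlusion and against MCAO ipsilateral for each deletion label, and most of those printed from the other comparisons. Over all settings 638 values of these kept direction and side of the threshold, 19 newly passed it and 27 changed sign. DESeq2 called more genes in every comparison: 69 for occlusion on the ipsilateral side (0 in the edgeR fit), 26 on the contralateral side, 6 between MCAO sides, 6 between sham sides, 6 for the interaction, 244 for the Hdac2 label (2 in the edgeR fit), 1642 for the Ezh2 label (250) and 659 between the labels (21), with 6 members called for the Ezh2 label. Voom called 1273, 7, 1 (sham sides), 1 (interaction), 32, 377 and 4 genes, with 2 members for ipsilateral occlusion and 3 for the Ezh2 label. RLE scaling called 4 genes for the Hdac2 label and 2 members for the Ezh2 label; there the split of called genes was 119 higher and 249 lower, against 39 and 211 in the edgeR fit, 159 and 218 by voom and 745 and 897 by DESeq2. Without the count filter 2 genes were called for ipsilateral occlusion and 38 between the labels. The background covariate gave 1, 10, 13 and 54 genes for ipsilateral occlusion, the Hdac2 label, the Ezh2 label and the labels against each other. Removing the length trend gave 1 and 10 genes for the first 2 of these, and removing the GC trend gave 4 for the Hdac2 and 87 for the Ezh2 label. Leaving out both high-background libraries gave 13, 62, 1000 (387 higher, 613 lower) and 115 genes, 1 on the contralateral side and 4 members for the Ezh2 label. Fits of only the groups compared gave 220, 1 and 422 genes, with 2 members for the Ezh2 label. The cause was not tested.

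Signs changed as follows, before setting values against the median of all genes. For ipsilateral occlusion, Smad7 went to -0.029 without the filter, -0.049 by voom and -0.22 without the GC trend, Acvrl1 to -0.13 and Tgfbr3 to -0.070 with the background covariate, and Bmpr2 to 0.41 without the length trend. For the Hdac2 label, Eng went to 0.10 without the GC trend. For the Ezh2 label, Smad1 went to 0.045 by RLE scaling and by DESeq2, 0.014 without the filter, 0.058 without the GC trend and 0.18 without both high-background libraries. Smad6 went to 0.25 with the covariate, 0.12 without the length trend, 0.65 without the GC trend and 0.21 without those libraries. Eng went to 0.070 with the covariate and 0.23 without the GC trend, and Bmpr2 to -0.26 without the length trend. Relative to the median of all genes, Smad1 stayed negative with RLE scaling and by DESeq2 (-0.32), without the filter (-0.26) and without the GC trend (-0.059), Smad7 stayed positive without the filter (0.20) and by voom (0.087), and Id1 between the labels stayed positive without the length trend (0.094). Between the labels Id1 went to -0.022 without the length trend, and between MCAO sides Eng went to -0.037 without the high-background libraries. The cause was not tested.

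Leaving out 1 library at a time gave 0 called members throughout. Genes called ran from 5 to 298 for the Ezh2 label (5 without MCAO ipsilateral replicate 1 or 2, 8 without Ezh2 replicate 3 and 24 without Ezh2 replicate 2), from 9 to 73 between the labels, from 0 to 18 for the Hdac2 label and from 0 to 1 on the contralateral side. Fold changes that changed sign ran from -0.019 to 0.56 for Acvrl1 and -0.0084 to 0.30 for Smad7 (ipsilateral occlusion), from -0.60 to 0.13 for Smad1 and -0.63 to 0.16 for Smad6 (Ezh2 label) and from -0.064 to 0.64 for Eng (MCAO sides). Whether the replicate numbers pair the samples was not settled. In 0 of 15 pairs of groups did every same-numbered pair of libraries correlate above 0.1, over a range of -0.42 to 0.39. Of these pairs, only the sides of the same treatment could share mice. Their same-numbered libraries correlated at 0.36, 0.35 and -0.12 in sham and at 0.28, 0.36 and 0.036 in MCAO. With 3 libraries a group these values cannot decide it, and the sides were compared as unpaired. With the replicate number as a block 12 genes were called for the Ezh2 label and 9 between the labels, and 0 members. With 3 libraries a group, the members' standard errors of 0.32 to 0.50 limit which fold changes can pass; a p that misses the threshold does not show that levels were alike.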
